A study of Rattus norvegicus with 9 samples.

Results

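The circadian clock genes described here are 10 transcripts of the transcription-translation loop that runs in almost every mammalian cell. They are the activators Arntl (also called Bmal1), Clock and Npas2, the repressors Per1, Per2, Per3, Cry1, Nr1d1 and Bhlhe40, and the output gene Dbp. They were chosen by name, with earlier results of these data known. Each was found by the annotation of the array's platform among probe sets that carry 1 gene symbol. All 10 of 10 were measured, each by exactly 1 probe set, out of 14506 genes named in the table. No member was removed by a filter on low values.

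Male rats of the Sprague Dawley strain gave RNA from a hindlimb muscle, the tibialis anterior (TIB), which was hybridized to Affymetrix Rat Gene 1.0 ST arrays, 1 for each rat. There were 3 rats in the fed state (Fed), 3 rats fasted until phase 2 (P2), in which body protein is spared and body mass is lost slowly, and 3 rats fasted until phase 3 (P3), in which protein loss accelerates. The labels name no mutation, transgene or drug, water was available to all rats, and the P3 rats were taken the day after that phase began. The labels give no age. An array carries the name of its group and its number (Fed 1, P2 3), and all values are log2 intensities of 1 probe set on 1 array.

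In the mammalian clock, the protein encoded by Arntl pairs with CLOCK or NPAS2, and the pair binds E-box sequences and turns on the Per, Cry, Nr1d1, Bhlhe40 and Dbp genes. PER and CRY proteins then inhibit that pair, while the nuclear receptor encoded by Nr1d1 represses Arntl through ROR elements and DBP activates genes through D-boxes. In skeletal muscle the loop is known to set daily rhythms of fuel use genes, and Per1 is also a well-known target of the glucocorticoid receptor. According to the study's methods, all rats were kept under a fixed light and dark cycle and killed in the same late-morning window. At a single time of day, a change in the level of a rhythmic transcript and a shift in its phase cannot be told apart. In whole muscle, fewer cells of a type and less RNA per cell cannot be told apart either.

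Differences were tested with limma across all 29215 probe sets, and a call is a Benjamini-Hochberg adjusted p under 0.05 over all of them. Because the 10 genes were chosen with earlier results of these data known, the counts below are descriptions and no test of the genes as a set. Across the groups, 8 of the 10 clock genes passed the F test, against 26.2% of all probe sets, and Clock and Nr1d1 did not. In P2 versus Fed, 4 of the 10 were called, with 9.28% of all probe sets called. The 3 that were higher were Per1, Per2 and Per3 (5.13% of all probe sets were higher), and the 1 that was lower was Npas2 (4.15% were lower). In P3 versus Fed, 7 were called, against 29.2% of all probe sets. Arntl, Per1, Per2 and Cry1 made up the 4 higher genes (15.8% of all were higher), and Npas2, Bhlhe40 and Dbp the 3 lower genes (13.4% were lower). In P3 versus P2, 5 were called, against 16.0% of all probe sets, with Arntl, Per1 and Cry1 the 3 higher genes (8.50% were higher) and Per3 and Bhlhe40 the 2 lower genes (7.52% were lower). Of all probe sets, 13582 have no symbol, whereas each clock gene is a named gene. With only the 15310 probe sets of 1 symbol in the fit, 2354, 5758 and 3729 were called in these 3 comparisons. These are larger shares than those over all probe sets.

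The median absolute log2 fold change of the 10 genes was 0.54 between P2 and Fed, 0.84 between P3 and Fed and 0.65 between P3 and P2. Over all probe sets it was 0.12, 0.18 and 0.13 in those 3 comparisons. Here and below, all probe sets include the 13582 without a symbol. No median change, share without overlap or residual SD was taken over named probe sets alone. Because genes moved in both directions, the signed medians of the clock genes stayed near 0, at -0.14, -0.07 and 0.13, beside 0.01, 0.00 and -0.01 for all probe sets. The arrays of the groups did not overlap for 6 of the 10 genes in P2 versus Fed (24.2% of all probe sets), for 8 in P3 versus Fed (42.4%) and for 6 in P3 versus P2 (27.4%). P2 and P3 are both compared with the same 3 fed arrays. With the stricter test of the study's methods, 2 clock genes, Per1 and Per2, were called in P2 versus Fed (2.26% of all probe sets), 3, with Bhlhe40 added, in P3 versus Fed (9.63%) and 0 in P3 versus P2 (4.86%). In that last comparison 4 of the 10 had a p under 0.05 by that test, which adjusts it over the 3 pairs of groups, and 6 had an unadjusted p under 0.05 by limma. No share of all probe sets was taken at these looser thresholds, so the 4 and the 6 cannot be set against one.

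**Figure D1:**
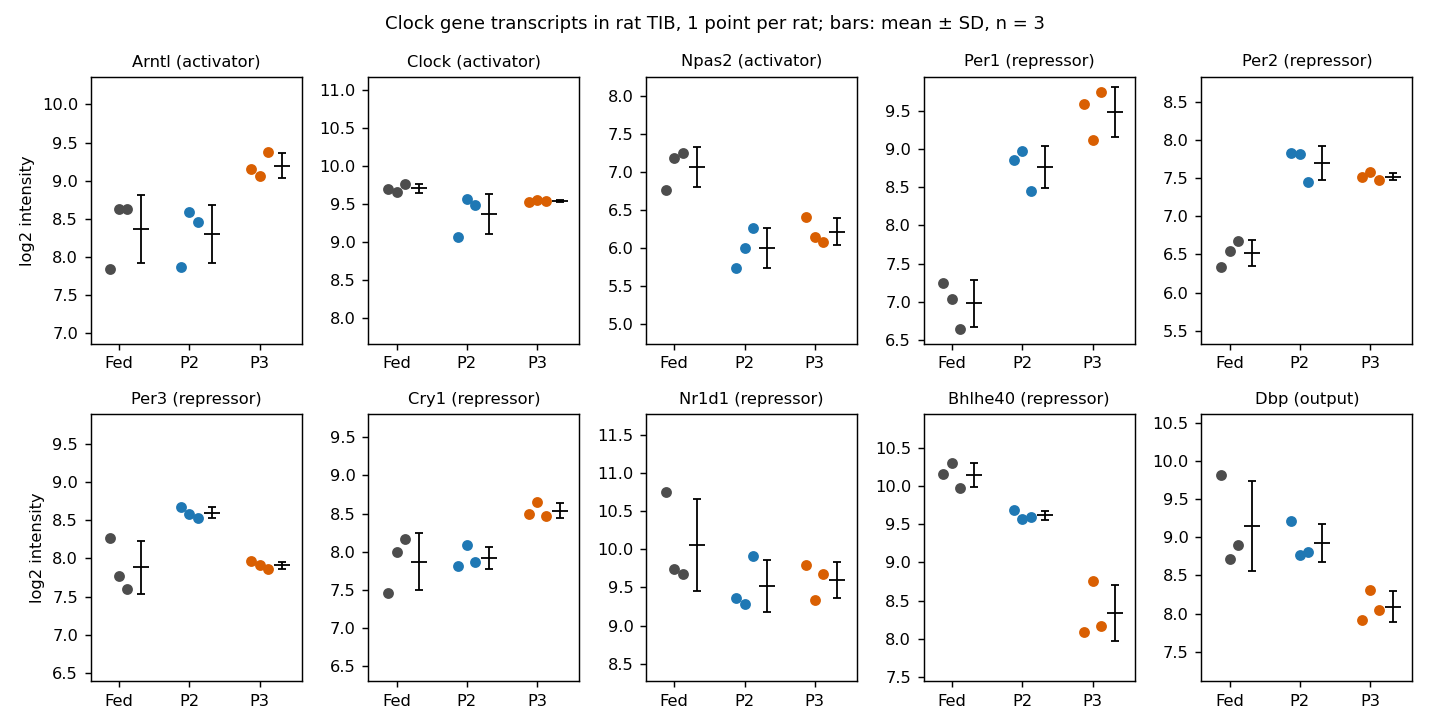
Log2 intensity of the 10 clock genes on each array, in 1 panel per gene, with 1 point per rat and the mean ± SD of 3 rats beside the points for Fed, P2 and P3; each panel has its own vertical axis of the same span. Per1 and Per2 lie higher and Npas2 lower in both fasted groups than in fed rats, Bhlhe40 lies lowest in P3, and Nr1d1 overlaps in all 3 groups.

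The median log2 values of the arrays lay between 5.80 and 5.90, and Pearson's r between arrays of 1 group, across probe sets that are not independent replicates, ran from 0.987 to 0.994. Over all probe sets P2 1 and P2 2 stood out most, with 9.64% and 6.07% of probe sets over 0.5 from the mean of the other 2 arrays of the group, against 2.40% to 3.96% on the other arrays. Without P2 1, 2 clock genes in place of 5 were called between P3 and P2, and the counts against fed rats were 4 for P2 and 7 for P3, as with it. Of all 29215 probe sets, 4381 in place of 4680 were then called between P3 and P2. Against fed rats the calls over all probe sets were 3364 in place of 2711 for P2 and 9267 in place of 8538 for P3. In the clock genes it was Fed 1 that stood apart, from Fed 2 and Fed 3. Its value differed from the mean of the other 2 fed arrays by over 0.5 for 5 of the 10 clock genes, against 2.97% of all probe sets. The limit of 0.5 was chosen after the values were seen. Fed 1 was higher by 1.05 for Nr1d1, by 1.01 for Dbp and by 0.58 for Per3, and its differences for Arntl and Cry1 were -0.78 and -0.62. The median absolute difference was 0.52 for the clock genes in Fed 1 and 0.10 for all probe sets there. No other array had more than 2 clock genes beyond 0.5. The median residual SD of the clock genes, 0.24, was above the 0.13 of all probe sets. Results of the 10 clock genes that rest on Fed 1 are given with and without it below.

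**Figure D2:**
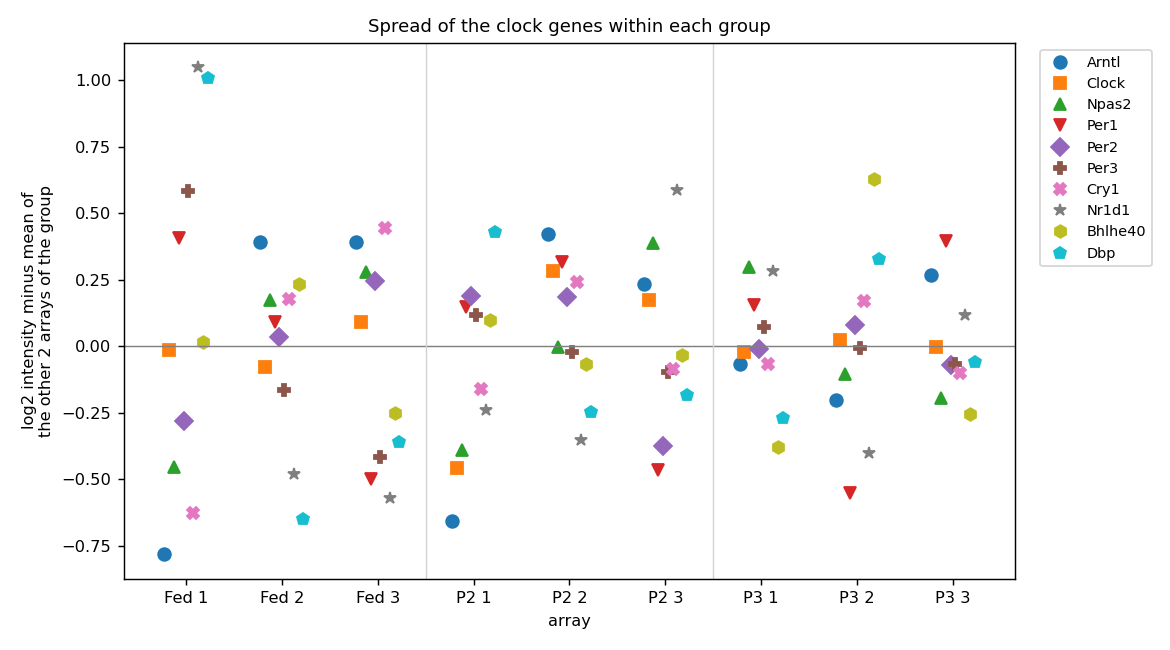
Difference of each array's log2 intensity from the mean of the other 2 arrays of its group, on the vertical axis, for the 10 clock genes on the 9 arrays. In Fed 1, Nr1d1 and Dbp lie near 1 and Arntl and Cry1 lie below -0.5.

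The promoter sequences show where the letters through which clock proteins are known to bind occur in these genes. Windows from 250 bases before to 50 bases after the annotated start sites came from RefSeq (GRCr8), with 11 windows for 9 of the 10 genes. Searched on both strands were the E-box CACGTG, the D-box TTATGTAA or TTACGTAA and the ROR element TAGGTCA or TGGGTCA, and no match overlapped another motif. Of all 33469 windows, 6.42% held that E-box, 1.01% that D-box and 6.60% that ROR element. The 4 genes with a match are shown upstream of the start, with the motif in capitals.
Arntl, ROR element, chr1:176766272-176766327, plus strand: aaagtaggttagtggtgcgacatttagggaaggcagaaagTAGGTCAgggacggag
Per2, D-box, chr9:99497138-99497225, minus strand: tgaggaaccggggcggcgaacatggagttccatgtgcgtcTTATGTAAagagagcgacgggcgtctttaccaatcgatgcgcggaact
Nr1d1, E-box, chr10:84229600-84229685, minus strand: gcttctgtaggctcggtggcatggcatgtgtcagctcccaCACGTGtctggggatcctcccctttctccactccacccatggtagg
Bhlhe40, E-box, chr4:143174200-143174275, plus strand: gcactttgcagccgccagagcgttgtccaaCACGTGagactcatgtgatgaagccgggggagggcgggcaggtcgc
The first base of the motif lies 16 bases before the start site in Arntl, 192 in Per2, 191 in 1 of the 2 windows of Nr1d1 and 220 in Bhlhe40. The windows of Clock, Npas2, Per1, Per3 and Dbp held none of these letters, which says nothing about sites farther away or in other spellings. A match is a description and no evidence of binding in these muscles.

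Among the activators, Npas2 fell in both phases of fasting. Arntl rose in P3 against both other groups, with calls near the threshold, and Clock had no call. Npas2, the paralog of Clock that can replace it beside the Arntl protein, had log2 intensities of 6.76, 7.18 and 7.25 in fed rats, 5.74, 6.00 and 6.26 in P2 rats and 6.41, 6.14 and 6.08 in P3 rats. Every fasted rat lay below every fed rat. The log2 fold change was -1.06 ± 0.17 (SE) in P2 versus Fed, which is 0.479 of the fed level (adjusted p = 0.00555). In P3 versus Fed it was -0.85 ± 0.17, or 0.556 of the fed level (adjusted p = 0.00439). Between P3 and P2 the arrays overlapped, and the difference of 0.21 had a 95% interval from -0.17 to 0.60 (adjusted p = 0.517). Both calls against fed rats were kept when any 1 array was left out, and without Fed 1 their adjusted p was 0.00624 in P2 and 0.00276 in P3.

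Arntl, whose protein is the common partner of CLOCK and NPAS2, had log2 intensities of 7.84, 8.63 and 8.63 in fed rats, 7.86, 8.58 and 8.46 in P2 rats and 9.15, 9.06 and 9.37 in P3 rats. All P3 rats lay above all other rats, while Fed 1 and P2 1 lay well below the others of their groups. Arntl was 1.78-fold higher in P3 than in fed rats (log2 fold change 0.83 ± 0.24, adjusted p = 0.0312) and 1.86-fold higher in P3 than in P2 rats (0.89 ± 0.24, adjusted p = 0.0365). P2 differed from Fed by -0.06, with a 95% interval from -0.62 to 0.49 (adjusted p = 0.918). The calls were near the threshold. Both were lost by the study's test with its overall p adjusted and each p required under 0.05. The call of P3 versus Fed was lost without Fed 1 (0.57, adjusted p = 0.0811), P3 1 (adjusted p = 0.0717), P3 2 (adjusted p = 0.0569) or P3 3 (adjusted p = 0.103). The call of P3 versus P2 was lost without P2 1, P2 3 or any P3 array (adjusted p between 0.0666 and 0.125), and without Fed 1 it stayed (adjusted p = 0.0143). The Arntl window above holds a ROR element, through which the protein of Nr1d1 is known to repress.

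Clock, whose protein acetylates histones and is the main partner of the Arntl protein, had log2 intensities of 9.69, 9.65 and 9.77 in fed rats, 9.06, 9.56 and 9.48 in P2 rats and 9.52, 9.55 and 9.53 in P3 rats. All fasted rats lay below all fed rats, by a small margin, and P2 1 was the lowest. The differences were -0.34 ± 0.12 in P2 versus Fed (adjusted p = 0.135) and -0.17 ± 0.12 in P3 versus Fed (adjusted p = 0.355), so neither was called. Their 95% intervals, which are not adjusted over probe sets, ran from -0.61 to -0.06 and from -0.44 to 0.10. The first leaves out 0, and its unadjusted p by limma was 0.0211. Between P3 and P2 the difference was 0.17, with an interval from -0.10 to 0.44 (adjusted p = 0.467).

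The repressors did not move together. Per1 and Per2 rose in P2 and in P3, and Per3 rose in P2 with no call between P3 and fed rats. Cry1 rose in P3, Bhlhe40 fell in P3, and Nr1d1 passed no test. Per1, a partner of CRY in the repressing complex and a gene that also responds to hormones, changed most among the 10 against fed rats. It had log2 intensities of 7.25, 7.04 and 6.65 in fed rats, 8.87, 8.98 and 8.46 in P2 rats and 9.59, 9.12 and 9.75 in P3 rats. The groups formed 3 separate steps with no overlap. Per1 was 3.46-fold higher in P2 than in fed rats (log2 fold change 1.79 ± 0.21, adjusted p = 0.0013) and 5.70-fold higher in P3 than in fed rats (2.51 ± 0.21, adjusted p = 2.53e-05), and both calls were kept when any 1 array was left out. The further difference of P3 versus P2, 0.72 ± 0.21 or 1.65-fold, only just passed (adjusted p = 0.0492). It lost the call in 7 of 9 leave-outs (without Fed 1, Fed 2, P2 1, P2 2, P2 3, P3 1 or P3 3, adjusted p between 0.0529 and 0.165) and with replicate numbers as a block (adjusted p = 0.0745), a repeated quantile normalization (adjusted p = 0.0873) or only P3 and P2 in the fit (adjusted p = 0.0766).

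Per2, the paralog whose loss shortens or abolishes daily rhythms in mice, had log2 intensities of 6.33, 6.54 and 6.68 in fed rats, 7.83, 7.83 and 7.45 in P2 rats and 7.52, 7.58 and 7.48 in P3 rats. All fasted rats lay above all fed rats, and the P2 and P3 arrays overlapped. Per2 was 2.27-fold higher in P2 than in fed rats (1.18 ± 0.12, adjusted p = 0.000753) and 2.01-fold higher in P3 than in fed rats (1.00 ± 0.12, adjusted p = 0.000265). P3 minus P2 was -0.18, with a 95% interval from -0.46 to 0.10 (adjusted p = 0.449). Each call against fed rats was kept in all 9 leave-outs. Its promoter window, printed above, holds the D-box, the element that DBP binds.

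Per3, the third paralog, whose loss has milder effects on rhythms in mice, had log2 intensities of 8.27, 7.77 and 7.60 in fed rats, 8.68, 8.59 and 8.53 in P2 rats and 7.96, 7.91 and 7.87 in P3 rats. All P2 rats lay above all other rats, and the P3 rats fell inside the fed range, which Fed 1 extended upwards. Per3 was 1.64-fold higher in P2 than in fed rats (0.72 ± 0.15, adjusted p = 0.0187) and fell to 0.621 of the P2 level in P3 rats (-0.69 ± 0.15, adjusted p = 0.0128). P3 differed from Fed by 0.03, with a 95% interval from -0.31 to 0.37 (adjusted p = 0.911). Without Fed 1 that difference was 0.22 (adjusted p = 0.0988), and every P3 rat lay above Fed 2 and Fed 3. The call of P3 versus P2 was kept in all 9 leave-outs. That of P2 versus Fed was lost without Fed 2 (adjusted p = 0.0760), Fed 3 (adjusted p = 0.0550), P2 2 (adjusted p = 0.0502) or P2 3 (adjusted p = 0.0523), while without Fed 1 the change was 0.91 (adjusted p = 0.00199). It was also lost with only P2 and Fed in the fit (adjusted p = 0.0625).

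Cry1, the cryptochrome that blocks the activating pair most strongly, had log2 intensities of 7.45, 7.99 and 8.17 in fed rats, 7.81, 8.08 and 7.86 in P2 rats and 8.49, 8.65 and 8.47 in P3 rats. All P3 rats lay above all other rats, and the P2 rats lay within the fed range. Cry1 was 1.59-fold higher in P3 than in fed rats (0.67 ± 0.17, adjusted p = 0.0154) and 1.53-fold higher in P3 than in P2 rats (0.62 ± 0.17, adjusted p = 0.0362). P2 minus Fed was 0.05, with a 95% interval from -0.33 to 0.43 (adjusted p = 0.908). Without Fed 1 the change of P3 versus Fed was 0.46 (adjusted p = 0.0185), and among the leave-outs its call was lost only without P3 2 (adjusted p = 0.0566). This call was also lost by the study's test with its overall p adjusted and each p required under 0.05. The call of P3 versus P2 was lost in 6 of 9 leave-outs (without Fed 2, P2 1, P2 3, P3 1, P3 2 or P3 3, adjusted p between 0.0548 and 0.118).

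Bhlhe40, also known as Dec1, encodes a basic helix-loop-helix repressor that competes for E-boxes, and its window above holds one. It had log2 intensities of 10.16, 10.31 and 9.98 in fed rats, 9.69, 9.58 and 9.60 in P2 rats and 8.08, 8.75 and 8.16 in P3 rats. No groups overlapped, with P3 2 the highest of the P3 rats. Bhlhe40 fell to 0.284 of the fed level in P3 rats (-1.82 ± 0.17, adjusted p = 4.34e-05) and to 0.409 of the P2 level in P3 rats (-1.29 ± 0.17, adjusted p = 0.000828). Both calls were kept in all 9 leave-outs. The P2 value lay -0.53 ± 0.17 from fed rats and was not a call (adjusted p = 0.0908), although it became one when P3 2 was left out of the shared estimate of spread (adjusted p = 0.0137), with array weights (adjusted p = 0.0338) or with only P2 and Fed in the fit (adjusted p = 0.0288).

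Nr1d1 encodes REV-ERB alpha, the heme-binding receptor that represses Arntl. It had log2 intensities of 10.76, 9.74 and 9.68 in fed rats, 9.36, 9.28 and 9.91 in P2 rats and 9.79, 9.34 and 9.68 in P3 rats. The groups overlapped throughout, and Fed 1 was the highest of all arrays. The differences of -0.54 in P2 versus Fed (adjusted p = 0.328) and -0.46 in P3 versus Fed (adjusted p = 0.294) had 95% intervals from -1.20 to 0.12 and from -1.12 to 0.20. Without Fed 1 they were -0.19 and -0.11 (adjusted p = 0.675 and 0.759).

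Dbp, a transcription factor of the PAR bZIP family that carries the rhythm to genes with D-boxes, fell in P3. Its log2 intensities were 9.82, 8.71 and 8.90 in fed rats, 9.21, 8.76 and 8.81 in P2 rats and 7.91, 8.31 and 8.05 in P3 rats. All P3 rats lay below all other rats, and Fed 1 was again the highest. Dbp fell to 0.482 of the fed level in P3 rats (-1.05 ± 0.27, adjusted p = 0.0155), and without Fed 1 the change was -0.72 (adjusted p = 0.0162). The call was lost without P3 1 (adjusted p = 0.0574). It was also lost by the study's test with its overall p adjusted and each p required under 0.05. P3 versus P2, -0.84 ± 0.27, missed the threshold (adjusted p = 0.0688) and passed it without Fed 1 (adjusted p = 0.00825) or with only P3 and P2 in the fit (adjusted p = 0.0198). It also passed when dim probe sets or those without 1 symbol were removed (adjusted p = 0.0419 and 0.0396). P2 minus Fed was -0.22, with a 95% interval from -0.82 to 0.39 (adjusted p = 0.707).

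**Figure D3:**
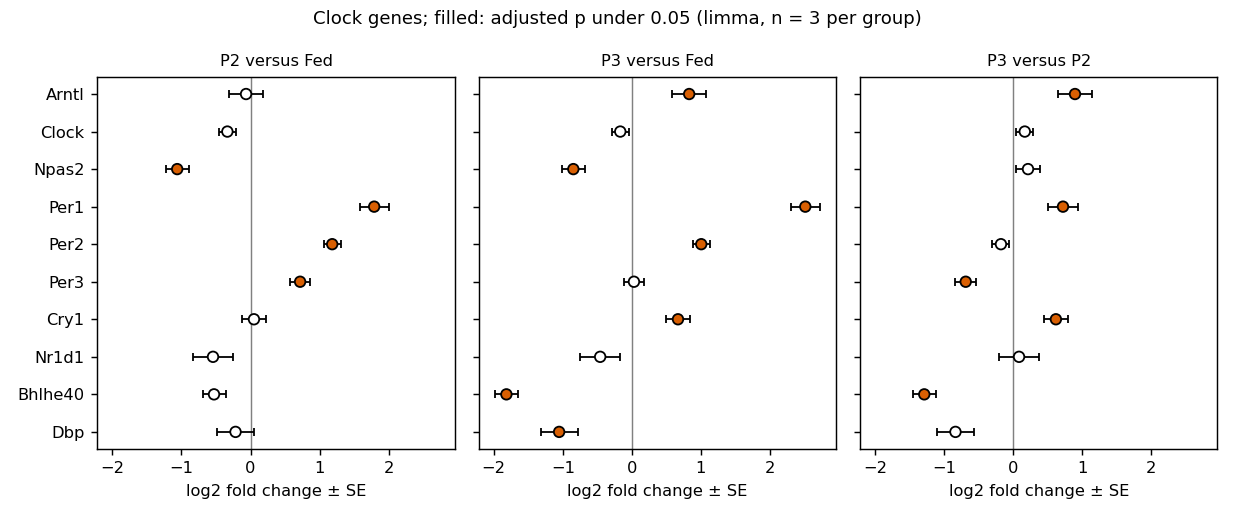
Log2 fold change ± SE of each clock gene, from limma with 3 rats per group, in 1 panel per comparison, with the groups named above it; filled points have an adjusted p under 0.05. Per1 and Per2 lie right of 0 in both comparisons with fed rats, Npas2 lies left of 0 in both, and Arntl and Cry1 lie right of 0 in both comparisons of P3.

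For the 7 genes called in P3 versus Fed, the place of P2 on the way from the fed level (0) to the P3 level (1) differed from gene to gene. It was 1.25 ± 0.31 for Npas2 and 1.18 ± 0.22 for Per2 (SD over 3 P2 arrays), so both were at or past the P3 level in P2. Per1 was at 0.71 ± 0.11 and Bhlhe40 at 0.29 ± 0.03. Dbp (0.21 ± 0.24), Cry1 (0.07 ± 0.21) and Arntl (-0.08 ± 0.46) stood near the fed level. These places are descriptions without a test, and those of Arntl, Cry1 and Dbp became -0.57, -0.35 and -0.17 without Fed 1. Sorted by the comparisons in which they were called, Npas2 and Per2 were called in P2 versus Fed with no further call between P2 and P3. Per1 was called at each step, and Arntl, Cry1, Dbp and Bhlhe40 were called only in comparisons with P3. For Dbp that was the comparison with fed rats alone. Bhlhe40 narrowly missed the call in P2 versus Fed (adjusted p = 0.0908), where its arrays did not overlap. Each rat was measured once, so these calls are no tested order in time.

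Genes outside the 10 whose centred log2 values ran closest to a clock gene over the 9 arrays were found by the root mean square difference. They were Ppargc1a (0.13) and Vamp1 (0.16) for Bhlhe40, Smox (0.13) and Asb12 (0.16) for Per3, and Ephx1 (0.13) and Dynlt2b (0.14) for Per2. For Cry1 they were Pigv (0.13) and Rae1 (0.14), for Npas2 Alas2 (0.18) and Fgf9 (0.19), and for Arntl Epb41 and Tln1 (0.20 each). Per1 was followed less closely by Atosa (0.24) and Trim63 (0.26), and Dbp by Ap1s2 (0.21) and Tmem106c (0.23). Ppargc1a, a transcriptional coactivator of mitochondrial genes, changed by -0.39 in P2 rats and by -1.91 in P3 rats against fed rats, beside -0.53 and -1.82 for Bhlhe40. Trim63, a ubiquitin ligase of muscle atrophy, had 1.49 and 2.58, beside 1.79 and 2.51 for Per1.

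Paralogs of the clock genes and further parts of the loop were taken from a list of 9 genes, of which 5 had a probe set with 1 symbol. Of the 5, 1 fell in P2 versus Fed, 1 rose and 1 fell in P3 versus Fed, and 1 rose in P3 versus P2, where 9.28%, 29.2% and 16.0% of all probe sets were called. Cry2, the second cryptochrome, had log2 intensities of 8.25, 8.58 and 8.77 in fed rats, 8.92, 9.08 and 8.81 in P2 rats and 9.37, 9.52 and 9.61 in P3 rats, with no overlap between groups. It was 1.96-fold higher in P3 than in fed rats (0.97 ± 0.14, adjusted p = 0.00059) and 1.48-fold higher in P3 than in P2 rats (0.56 ± 0.14, adjusted p = 0.0212), so both cryptochromes were higher in P3. The Cry2 call of P3 versus P2 was lost without P2 1, P2 3, P3 2 or P3 3 (adjusted p = 0.0544, 0.0789, 0.0653 and 0.0814). Bhlhe41 (Dec2), the paralog of Bhlhe40, fell versus fed rats in P2 (-0.53 ± 0.13, adjusted p = 0.034) and also in P3 rats (-0.63 ± 0.13, adjusted p = 0.00498). Its P2 call was lost with the replicate block (adjusted p = 0.0709), with only P2 and Fed in the fit (adjusted p = 0.0773) and without Fed 1, Fed 2, P2 2, P2 3 or P3 2 (adjusted p = 0.105, 0.121, 0.0995, 0.108 and 0.0532). Nr1d2, the second REV-ERB receptor, differed from fed rats by 0.25 in P2 (adjusted p = 0.445) and by -0.07 in P3 rats (adjusted p = 0.805). It lay 0.65 above the other fed arrays in Fed 1, where Nr1d1 was high too. Arntl2 lay between 4.40 and 4.80 on all arrays, with -0.12 in P2 and -0.22 in P3 (adjusted p = 0.575 and 0.156).

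Of the factors that share the D-box with Dbp, Tef and Nfil3 were measured, out of 3 listed. Tef, an activator of the same PAR bZIP family as Dbp, rose 1.45-fold in P2 rats (0.53 ± 0.09, adjusted p = 0.00849) and 1.37-fold in P3 rats (0.45 ± 0.09, adjusted p = 0.00507) against fed rats. Nfil3, which represses through the D-box, had log2 intensities of 7.64, 8.50 and 8.61 in fed rats, 8.60, 9.38 and 8.90 in P2 rats and 9.19, 9.14 and 9.40 in P3 rats. It rose in P3 (1.00 ± 0.27, adjusted p = 0.0211, lost without P3 1 or P3 3, adjusted p = 0.0522 and 0.0727), while its P2 change of 0.71 did not pass (adjusted p = 0.156). Fed 1 was the lowest fed array for Nfil3 (-0.92 from the mean of the other 2), as it was for Arntl and Cry1.

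Enzymes that modify PER and CRY proteins or their partners were represented by 8 of 10 listed genes. Of the 8, 1 rose in P2 versus Fed, 2 rose and 1 fell in P3 versus Fed, and 1 rose and 1 fell in P3 versus P2. In these small numbers the counts lie near the shares of all probe sets called (9.28%, 29.2% and 16.0%). Usp2, a ubiquitin protease that acts on clock proteins, had log2 intensities of 9.05, 9.36 and 9.26 in fed rats, 9.89, 10.15 and 9.74 in P2 rats and 9.22, 9.23 and 9.28 in P3 rats. Like Per3, it was high in P2 alone. Usp2 was 1.63-fold higher in P2 than in fed rats (0.70 ± 0.12, adjusted p = 0.00639), 0.622 of the P2 level in P3 rats (-0.68 ± 0.12, adjusted p = 0.00346), and P3 differed from Fed by 0.02 (adjusted p = 0.925). Csnk1e, casein kinase 1 epsilon, which phosphorylates PER, rose 1.64-fold in P3 versus Fed (0.71 ± 0.08, adjusted p = 0.000201). Gsk3b, another clock kinase, rose by 0.25 ± 0.07 (adjusted p = 0.0287), and Fbxw11, a ubiquitin ligase subunit that recognizes phosphorylated PER, fell by 0.37 (adjusted p = 0.0367). Both calls were lost with the replicate block (adjusted p = 0.0617 for Gsk3b and 0.0567 for Fbxw11) and without any 1 of Fed 1, Fed 2, Fed 3, P3 1 and P3 3 (adjusted p at least 0.0560). That of Gsk3b was also lost after a repeated quantile normalization (adjusted p = 0.163), and that of Fbxw11 with array medians subtracted (adjusted p = 0.0631).

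Genes known as clock outputs in muscle or other tissues were represented by 10 of 12 listed. Of the 10, 5 rose in P2 versus Fed, 5 rose and 1 fell in P3 versus Fed, and 2 rose and 3 fell in P3 versus P2, where 9.28%, 29.2% and 16.0% of all probe sets were called. Their median absolute log2 fold changes were 0.53, 0.82 and 0.42 in those comparisons, beside 0.12, 0.18 and 0.13 over all probe sets. Cdkn1a, the p21 inhibitor of the cell cycle, had log2 intensities of 7.16, 6.98 and 6.98 in fed rats, 8.15, 9.68 and 8.62 in P2 rats and 10.37, 10.36 and 10.49 in P3 rats. It was higher by 1.78 ± 0.31 in P2 rats (adjusted p = 0.00886) and by 3.36 ± 0.31 in P3 rats (adjusted p = 4.69e-05) than in fed rats, and like Per1 it had no overlap between groups. Myod1, the myogenic transcription factor whose rhythm the Arntl and CLOCK proteins drive, had log2 intensities of 8.70, 8.93 and 9.86 in fed rats, 9.26, 9.40 and 8.57 in P2 rats and 5.66, 6.31 and 6.02 in P3 rats. It fell to 0.111 of the fed level in P3 rats (-3.17 ± 0.32, adjusted p = 8.58e-05) and differed by -0.09 in P2 (adjusted p = 0.918). Pdk4, the kinase that shuts off pyruvate dehydrogenase, rose by 3.06 ± 0.18 in P2 rats (adjusted p = 7.35e-05) and by 2.62 ± 0.18 in P3 rats (adjusted p = 7.54e-06), and Ucp3, a mitochondrial carrier, was 4.73-fold higher in P2 than in fed rats (adjusted p = 0.00798) and fell to 0.108 of the P2 level in P3 rats (adjusted p = 0.000538). These genes have many other regulators, and their relation to the clock was not tested.

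**Figure D4:**
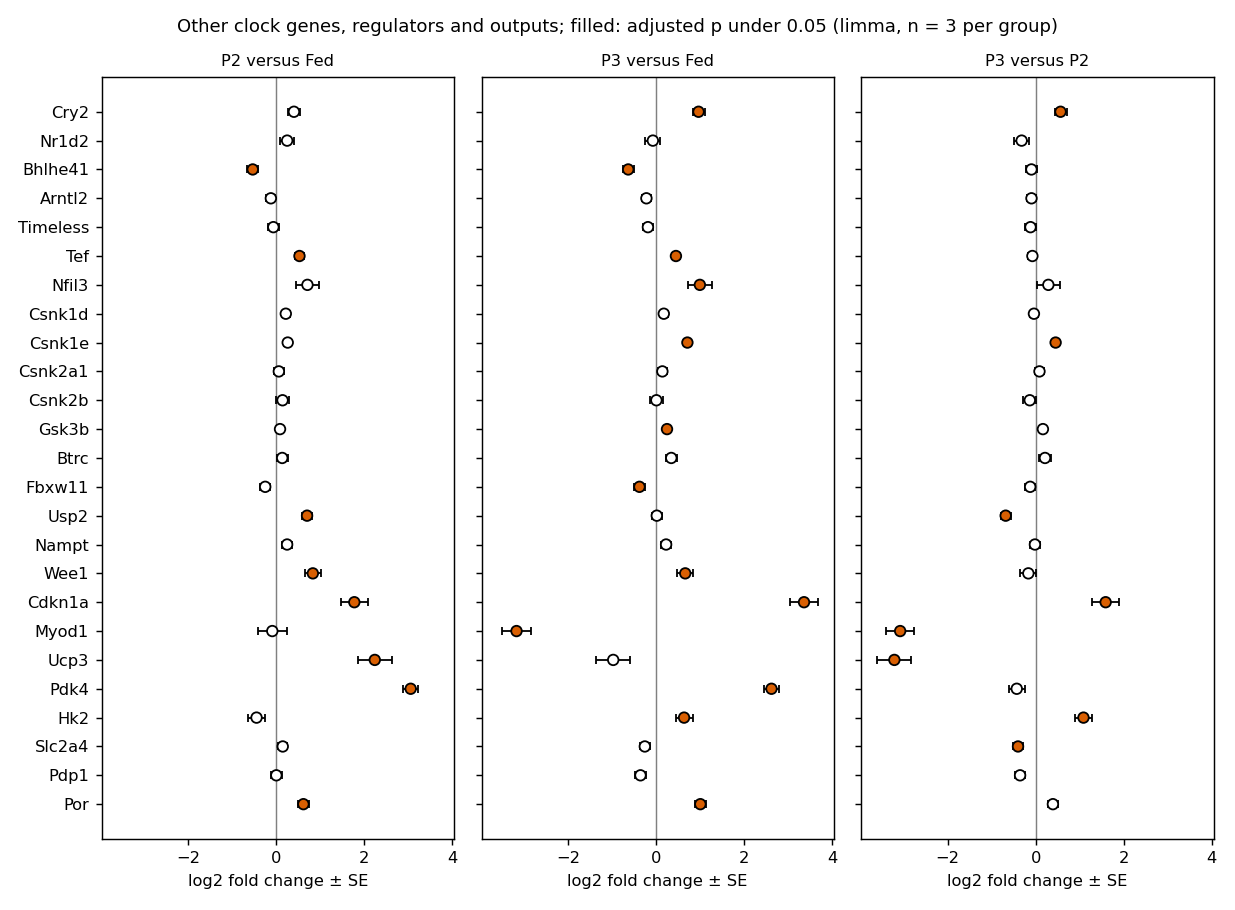
Log2 fold change ± SE of the measured paralogs, D-box factors, kinases, ligases and outputs, from limma with 3 rats per group, in 1 panel per comparison, with the groups named above it; filled points have an adjusted p under 0.05. Cdkn1a and Pdk4 lie far right of 0 in both comparisons with fed rats, Myod1 lies far left in both comparisons of P3, and Usp2 lies right of 0 in P2 versus Fed and left of 0 in P3 versus P2.

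Levels of some cell type markers differed between the groups as well. Of all probe sets, 15.8% were called higher and 13.4% lower in P3 versus Fed, and 5.13% higher in P2 versus Fed. Skeletal muscle fibre genes (8 of 8 measured) had a summed linear intensity of 88582 to 89984 in Fed, 80564 to 83368 in P2 and 70985 to 76590 in P3, with Mb and Pvalb lower in P3. Acta1, Ckm, Myh1, Myh2, Myh4 and Tnnt3 were not called in any comparison. The sum of 5 fibro-adipogenic markers was 10281 to 11766 in Fed, 5026 to 8800 in P2 and 3807 to 5577 in P3. In P3 versus Fed, 3 of the 5 fell, namely Col1a1, Col3a1 and Ly6c. Pdgfra (-0.39, adjusted p = 0.377) and Dcn (0.39, adjusted p = 0.0924) were not called there, so the markers did not move together. The sum of 5 adipocyte markers was 947 to 1018 in Fed, 1624 to 1764 in P2 and 646 to 871 in P3. Of these 5, 2 were called higher in P2 versus Fed, Adipoq and Fabp4, and Fabp4 alone was lower in P3 versus Fed. Fabp4, with a fed mean of 9.66, was the brightest of the 5 and weighs most in the sum. Adipoq (0.33), Plin1 (0.01), Cfd (0.004) and Lep (-0.07) were not called in P3 versus Fed, so these markers did not move together either. Macrophage (5 of 5 measured) and endothelial markers (4 of 5) each had 1 gene higher in P3 versus Fed, Cd163 and Pecam1. In these small numbers that lies near the share of all probe sets. Not called there were Cd68 (-0.23), Csf1r (-0.35), Adgre1 (-0.31), Mrc1 (0.21), Cdh5 (-0.14), Kdr (-0.43) and Tek (0.42). The sums of T lymphocyte and liver markers lay at 89.3 to 108 and 65.3 to 73.4 over all arrays. The part of these shifts in the clock gene results was not tested.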

How the data were processed

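The authors made the deposited values, log2 intensities per probe set and array, by RMA with Affymetrix Expression Console 1.1 (submitters' notes), which applied sketch quantile normalization and median polish. The genome build is not given in the sources used here. The values were used as deposited. Of 29215 probe sets, all tested, 15310 have 1 symbol in the platform annotation, 323 several and 13582 none, and 15279 of the first matched a current rat gene. Where several probe sets name a gene, the one with the highest mean stands for it.

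A model with 1 mean per group, on all 9 arrays and without covariates, was fitted with lmFit and eBayes (limma 3.58.1, R 4.3.3), and the Benjamini-Hochberg adjustment covered all probe sets of each comparison. SEs and 95% intervals come from that fit, which was tested on simulated data. The intervals are not adjusted for the number of probe sets. Figures used Python 3.11.15 and matplotlib 3.10.9. The number of arrays, 3 per group, limits the precision. Each rat has 1 array, without technical replicates.

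Named are all 10 clock genes, up to 4 genes per other list with the largest change among those called versus Fed, the paralogs, and the 2 genes most like each clock gene past the F test. The clock genes and lists were chosen with earlier results of these data known. Alternatives repeated the quantile normalization, subtracted array medians, required a mean log2 of at least 5 or 1 symbol per probe set, and moderated with trend and robust options. Others weighted the arrays, averaged all probe sets of a gene, fitted only 2 groups at a time, used the replicate number as a block, required an adjusted p below 0.01 or a 1.5-fold change, ran the test of the study's methods with its overall and pairwise p below 0.001, ran a looser form of it (overall p adjusted, both below 0.05), or left out each array. Pairwise p-values of that test are adjusted over the 3 pairs of groups.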

Additional observations from a re-analysis of the deposited data

How the results depend on the processing

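Of the 10 clock genes, 4 were called in P2 versus Fed, 7 in P3 versus Fed, 5 in P3 versus P2 and 8 by the F test. At an adjusted p under 0.01 there were 4 in P3 versus Fed, 1 in P3 versus P2 and 5 by the F test. The test of the study's methods gave 2, 3, 0 and 3, and its looser form (overall p adjusted and pairwise p, each under 0.05) gave 4, 2 and 5 for the last 3 of these. Leaving out 1 array gave 3 to 5, 5 to 7, 2 to 5 and 5 to 8. With the replicate block the counts were 4, 7, 4 and 8. Deviations of same-numbered arrays correlated at -0.24 to 0.12 over 9 pairs, and 3 of 9 arrays correlated best with their own number. These values show no pairing of the rats by number, but with 3 arrays per group they cannot exclude one. The block took the call of Per1 in P3 versus P2 (adjusted p = 0.0745). Directions turned only in differences that were not called. Arntl in P2 versus Fed was 0.067 with array weights and -0.33 to 0.15 in the leave-outs, which gave -0.16 to 0.20 for Cry1 and -0.43 to 0.12 for Dbp there. Nr1d1 in P3 versus P2 was -0.069 with array weights and -0.032 to 0.28 in the leave-outs, and Per3 in P3 versus Fed was -0.054 after a repeated quantile normalization and -0.11 to 0.22. The cause was not tested. Among the paralogs the 1 call in P2 versus Fed and the 1 in P3 versus P2 became 0 at an adjusted p under 0.01, at 1.5-fold and by the methods' test (1 each had a pairwise p under 0.05 there). The P2 call also became 0 with only 2 groups or the block, the 2 calls in P3 versus Fed became 0 by the methods' test (2 under 0.05), and leave-outs gave 0 to 1, 0 to 2 and 2 to 3. For Tef and Nfil3, the 1 call in P2 versus Fed became 0 and the 2 in P3 versus Fed became 1 at 1.5-fold, the 2 became 1 at an adjusted p under 0.01 and by the looser form of the methods' test, whose strict form gave 0 in both (pairwise p under 0.05 for 1 and 2), and leave-outs gave 1 to 2 in P3. For the kinases and ligases, the 1 call in P2 versus Fed became 2 with array weights and with the looser methods' test and 0 with the strict one (2 had a pairwise p under 0.05). Their 3 calls in P3 versus Fed became 1 with the block, under 0.01, at 1.5-fold and by both forms of the methods' test, and 1 to 3 in leave-outs, and their 2 in P3 versus P2 became 1 at 1.5-fold and 0 by the methods' test (2 under 0.05). The outputs had 3 instead of 5 calls in P2 versus Fed under 0.01, 1 by the methods' test there and in P3 versus P2, and 3 to 6, 4 to 6 and 4 to 6 in leave-outs. Over all probe sets, the 2711, 8538 and 4680 calls became 660, 2813 and 1419 by the methods' test and 1437, 5433 and 2750 at 1.5-fold. Under 0.01 they became 1118, 5913 and 2816, and with the replicate block 1983, 7930 and 4035. The looser form of the methods' test gave 5647 in P3 versus Fed and 4370 in P3 versus P2, and array weights gave 4284 in P2 versus Fed. Without Fed 2, Fed 3 or P2 3, the 2711 became 1573, 1711 and 1627. The counts with only a pairwise p under 0.05 have no share of all probe sets beside them. Precision is limited by 3 arrays per group.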
